A study of Mus musculus with 15 samples.

Results

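Encenicline was compared with saline in mouse hearts under pressure overload, across all genes measured. Encenicline (EVP-6124) is an agonist of the nicotinic acetylcholine receptor that Chrna7 encodes. The comparison used the 5 libraries whose titles name encenicline and the 5 whose titles name saline, 10 of the 15 RNA-sequencing libraries in the series. Of the 54532 genes in the table, 13396 reached 0.5 FPKM in 5 or more libraries and were tested, 11648 of them protein coding. FPKM scales the fragments counted for a gene to its length and to the size of its library.

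The encenicline mice received 2 mg/kg/day in the drinking water. A group on donepezil, an inhibitor of acetylcholinesterase, received 5 mg/kg/day and entered the model fit and 1 comparison below. The control mice received physiological saline. All mice were wild-type C57BL/6 animals, banded at 8 to 10 weeks of age by transverse aortic constriction (TAC), which narrows the aorta with a ligature. They were randomised 15 to a group after 4 weeks of TAC, and the batch field of the label gives 8 weeks of TAC. No unbanded heart was analysed, so banding is shared by every group. The labels give neither the sex of the mice nor the part of the heart, and they do not say that each library is a separate mouse. The p-values therefore measure the spread between these libraries, which may be partly technical.

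The receptor encoded by Chrna7 is an ion channel opened by acetylcholine, and on macrophages its activation by the vagus nerve is known to dampen inflammatory cytokines through JAK2 and STAT3. Type I interferons signal through a complex that holds STAT2 and IRF9, which binds a short DNA element and switches on genes against viruses. Under pressure overload the heart is known to lay down collagen, to turn to fetal sarcomere and natriuretic genes and to burn less fatty acid.

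The reads recovered per library numbered 14496147 to 17176086 over the 15 libraries. Cardiomyocyte markers stood high in each of the 10 libraries compared, with 2525 to 2981 FPKM with encenicline, against 1816 to 3100.1 FPKM with saline for Myh6, the main myosin heavy chain of the mouse ventricle. Mitochondrially encoded genes took 21.8 to 27.0% of reads with encenicline and 19.5 to 23.7% with saline (exact two-sided permutation p = 0.103). The library size that the deposited FPKM values imply was 0.925 to 1.03 times the recovered reads with encenicline and 0.999 to 1.12 times with saline (exact two-sided permutation p = 0.0238, 0.0952 after Benjamini-Hochberg adjustment over 4 library measures). Saline 5 and saline 3 lay farthest apart on the first principal component of the 10 libraries (31.04 and -26.41, with 22.1% of the variance), and donepezil 4 correlated least with its own group (median r of 0.962 across genes). The treatment field of the label names donepezil for encenicline 1 and saline for donepezil 1, against their titles. Pdk4, whose RNA level set the drug groups apart, was at 176 FPKM in encenicline 1, where the other encenicline libraries had 168 to 300 FPKM, the donepezil libraries 668 to 1186 FPKM and the saline libraries 100.7 to 197 FPKM. The highest of all libraries was donepezil 1, at 1186 FPKM.

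No single gene passed the test. The limma fit of encenicline against saline called 0 genes at a Benjamini-Hochberg adjusted p under 0.05 (0.0% of those tested), and limma voom on recovered reads also called 0. At an unadjusted p under 0.05 the limma fit had 1235 genes (9.22%), of which 653 were higher (4.87%) and 582 lower (4.34%), and voom had 1270. All 5 encenicline libraries lay above all 5 saline libraries in 129 genes (0.963%) and below them in 98 genes (0.732%). Whatever their p, 51.2% of genes were higher with encenicline and 48.8% lower. Without saline 3 the genes at an unadjusted p under 0.05 numbered 832, with 420 higher. The median log2 fold change over all genes was 0.004 and the median standard error was 0.11. From the 1st to the 99th percentile of genes the log2 fold change ran from -0.57 to 0.54, and 39 genes differed by 2-fold or more (13 higher, 26 lower). With FPKM rescaled so that all libraries sum alike (TPM), the median of all genes moved to -0.13 and the genes at an unadjusted p under 0.05 became 70 higher and 1575 lower. Grouped by the treatment field, 739 genes had an unadjusted p under 0.05 and the smallest adjusted p was 0.826 in limma. The 12 higher and 12 lower protein-coding genes with the smallest p had unadjusted limma p between 8.36e-05 and 0.00146.

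The smallest adjusted p (0.293 in limma with Benjamini-Hochberg adjustment) was shared by Gm14086 and AC122821.1, both named here after their values were seen. Gm14086, an unprocessed pseudogene, had 0 reads in each of encenicline 1 to 5, against 2, 1, 4, 2 and 3 reads in saline 1 to 5. In donepezil 1 to 5 it had 2, 1, 1, 0 and 2 reads. With donepezil 4 left out of the shared spread, an alternative chosen after seeing the data, Gm14086 was the 1 gene called (limma with Benjamini-Hochberg adjusted p = 0.0226). Over the alternative settings the smallest adjusted p of any gene ran from 0.0226 to 0.826 in limma, and Gm14086 rests on 18 reads in 15 libraries.

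**Figure D1:**
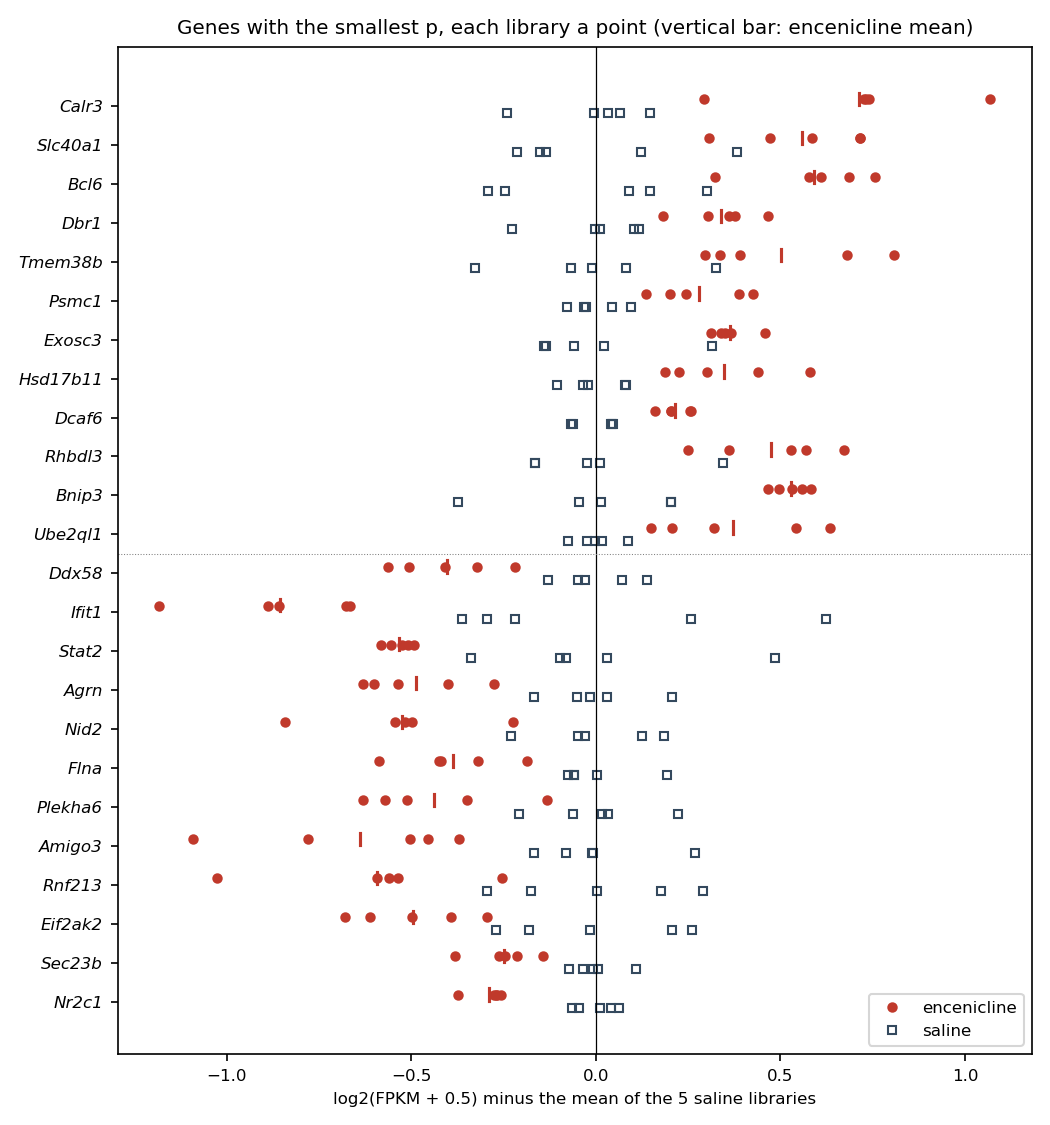
The 12 higher and the 12 lower protein-coding genes with the smallest p in encenicline against saline, above and below the dotted line. Each point is 1 library, filled for encenicline (upper row of each gene) and open for saline (lower row), on log2(FPKM + 0.5) minus the saline mean; bars mark the encenicline mean, which is farthest from 0 for Ifit1 (-0.86) and Calr3 (0.71).

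Interferon pathway genes were one of the large groups on the lower side. Of its sensing and signalling genes 13 of 15 tested were lower with encenicline, as were 34 of 34 effectors and 13 of 14 inducible GTPases. An unadjusted p under 0.05 on the lower side was reached by 9, 23 and 10 of them, where 4.34% of all genes did so. None passed over all genes (0 called by limma or voom). Their median log2 fold changes were -0.35, -0.40 and -0.33, against 0.004 over all genes. Under TPM, which moved the median of all genes to -0.13, every member of the 3 lists was lower, and 1 GTPase gene lay above that median. After quantile normalization all but 1 GTPase gene were lower.

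Ddx58 (ENSMUSG00000040296, GRCm38 chromosome 4, 40203773 to 40239828, minus strand) encodes RIG-I, the cytoplasmic sensor of viral RNA. It stood at 2.36, 2.01, 2.19, 1.92 and 2.57 FPKM in encenicline 1 to 5, against 2.96, 2.76, 3.44, 2.998 and 3.25 FPKM in saline 1 to 5. The Ddx58 log2 fold change was -0.40 (SE 0.08, Benjamini-Hochberg adjusted p = 0.368 in limma). The highest encenicline library lay below the lowest saline library. Stat2 (ENSMUSG00000040033, GRCm38 chromosome 10, 128270559 to 128292849, plus strand) encodes a subunit of the complex that type I interferon activates, and it had 2.88, 2.92, 2.77, 2.71 and 2.84 FPKM in encenicline 1 to 5, against 3.31, 4.00, 4.05, 4.41 and 6.23 FPKM in saline 1 to 5. The Stat2 log2 fold change was -0.53 (SE 0.11, Benjamini-Hochberg adjusted p = 0.4 in limma). The encenicline values of Stat2 lay close together, and saline 5 was the highest of the saline libraries. Irf9, the DNA-binding partner in the same complex, had 3.71, 3.37, 3.54, 3.73 and 3.94 FPKM in encenicline 1 to 5, against 4.20, 4.29, 5.24, 4.54 and 7.55 FPKM in saline 1 to 5 (log2 fold change -0.42, SE 0.12, Benjamini-Hochberg adjusted p = 0.491 in limma), again without overlap. Irf7, the transcription factor that amplifies interferon production, had 3.95, 3.94, 3.58, 4.66 and 4.68 FPKM in encenicline 1 to 5, against 5.66, 5.09, 8.59, 5.27 and 8.30 FPKM in saline 1 to 5. The Irf7 log2 fold change was -0.58 (SE 0.16, Benjamini-Hochberg adjusted p = 0.436 in limma). Saline 3 and saline 5 were the high libraries of Irf7, and the other 3 saline libraries still exceeded each encenicline library. Eif2ak2, the RNA-activated kinase PKR, ranged over 1.33 to 1.90 FPKM with encenicline, against 1.94 to 3.02 FPKM with saline (log2 fold change -0.50, SE 0.12, Benjamini-Hochberg adjusted p = 0.428 in limma), so that its groups met without overlapping. These 5 were the only sensing genes whose groups did not overlap, 5 of 15 tested where 0.732% of all genes lay apart on the lower side. The interferon receptor chain Ifnar2 and the adaptor Mavs were the 2 members above 0, at 0.01 and 0.02 on the log2 scale.

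Ifit1 (ENSMUSG00000034459, GRCm38 chromosome 19, 34640871 to 34650009, plus strand), which encodes a protein that binds viral RNA caps, showed the lowest log2 fold change of all the interferon genes tested. It had 2.16, 1.85, 1.37, 1.7999 and 2.18 FPKM in encenicline 1 to 5, against 2.97, 3.16, 4.59, 2.81 and 6.06 FPKM in saline 1 to 5. The Ifit1 log2 fold change was -0.86 (SE 0.17, Benjamini-Hochberg adjusted p = 0.389 in limma). Encenicline 3 was the lowest library and saline 5 the highest, with no overlap between the groups. Ifit2, a relative of Ifit1, had 4.60, 3.79, 3.58, 4.14 and 4.98 FPKM in encenicline 1 to 5, against 5.66, 5.08, 8.30, 7.02 and 6.00 FPKM in saline 1 to 5. The Ifit2 log2 fold change was -0.54 (SE 0.17, Benjamini-Hochberg adjusted p = 0.499 in limma). Samd9l, a restriction factor against poxviruses, had 4.10, 3.67, 4.04, 3.45 and 2.98 FPKM in encenicline 1 to 5, against 4.44, 4.24, 5.79, 4.83 and 7.60 FPKM in saline 1 to 5 (log2 fold change -0.48, SE 0.14, Benjamini-Hochberg adjusted p = 0.436 in limma), and its groups also lay apart. Mx2, a dynamin-like antiviral GTPase, was at 0.289 to 0.459 FPKM with encenicline, against 0.460 to 1.30 FPKM with saline (log2 fold change -0.63, SE 0.15, Benjamini-Hochberg adjusted p = 0.428 in limma), near the pseudocount of 0.5 FPKM, so its fold change depends on that setting. Rtp4, an interferon-induced regulator of that response, had 4.16, 3.08, 2.88, 3.98 and 4.43 FPKM in encenicline 1 to 5, against 4.37, 4.90, 6.91, 5.80 and 8.00 FPKM in saline 1 to 5 (log2 fold change -0.61, SE 0.15, Benjamini-Hochberg adjusted p = 0.428 in limma), where only encenicline 5 exceeded the lowest saline library. Rnf213, a large ubiquitin ligase of the antimicrobial defence, was at 1.72 to 3.29 FPKM with encenicline, against 3.19 to 5.03 FPKM with saline (log2 fold change -0.59, SE 0.14, Benjamini-Hochberg adjusted p = 0.428 in limma), with overlap between encenicline 3 and saline 1.

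**Figure D2:**
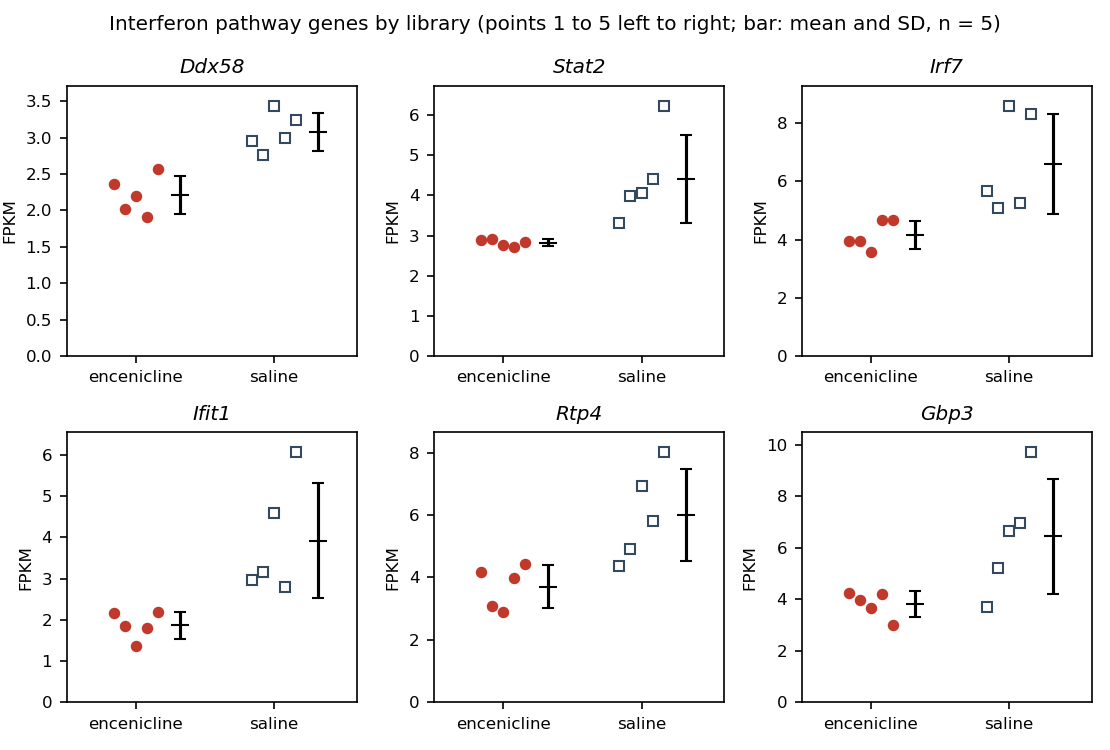
FPKM of 6 interferon pathway genes in encenicline (left, filled) and saline (right, open), 1 point per library with mean and SD beside them (n = 5). The encenicline points lie close together below the saline points of Ddx58, Stat2, Irf7 and Ifit1, and overlap with 1 saline library in Rtp4 and Gbp3.

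Among the inducible GTPases, which attack the vacuoles of intracellular parasites, no gene had groups that lay apart. Gbp3 had 4.23, 3.98, 3.65, 4.22 and 3.01 FPKM in encenicline 1 to 5, against 3.70, 5.19, 6.64, 6.95 and 9.69 FPKM in saline 1 to 5 (log2 fold change -0.63, SE 0.19, Benjamini-Hochberg adjusted p = 0.499 in limma), and saline 1 fell among the encenicline libraries. Ifi47 (-0.36), Tgtp1 (-0.54) and Irgm1 (-0.23) had the next smallest p of the list. Irgm1, a regulator of the other members, stood at 3.40, 3.28, 3.17, 3.50 and 3.52 FPKM in encenicline 1 to 5, against 3.32, 4.10, 3.66, 4.80 and 4.54 FPKM in saline 1 to 5. Reads of the Gbp and Tgtp families are uncertain, since near-identical paralogs could have split them in the authors' counting.

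The promoters of these genes are shown because interferon acts on them through a short element, the interferon-stimulated response element, searched here on both strands as GAAA, 2 bases of any kind, and GAAA again. In RefSeq windows from 250 bases before to 50 bases after a gene's start (GRCm38.p6), 22 of the 48 genes of the 3 lists that matched a window by symbol held the motif (45.8%), against 339 of 9502 tested genes (3.57%) and 3.44% of all windows. By list they were 4 of 12 sensing genes (33.3%), 9 of 26 effectors (34.6%) and 9 of 10 GTPases (90.0%). The 4 stretches of 60 bases below run 5′ to 3′ on the gene's strand, with the motif in capitals. TTTC, 2 bases and TTTC is the same motif on the other strand, and neighbouring matches overlap in Gbp3 and Irgm1.
Stat2, chr10:128270251-128270310, plus strand: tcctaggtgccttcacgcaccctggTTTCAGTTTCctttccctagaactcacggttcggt
Ifit1, chr19:34640760-34640819, plus strand: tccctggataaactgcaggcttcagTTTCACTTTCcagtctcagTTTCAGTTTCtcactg
Gbp3, chr3:142559974-142560033, plus strand: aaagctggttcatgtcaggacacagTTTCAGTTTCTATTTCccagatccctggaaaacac
Irgm1, chr11:48871416-48871475, minus strand: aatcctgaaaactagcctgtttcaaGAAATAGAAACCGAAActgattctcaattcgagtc
Ifit1 carries a pair of separate matches, and Stat2 a single one. Groups lay apart for Ifit1 and Stat2 and overlapped for Gbp3 and Irgm1. The GTPase list, in which the motif was commonest, was the one of the 3 with no gene whose groups lay apart. It also had the largest share at an unadjusted limma p under 0.05 on the lower side. That level was reached by 10 of 14 GTPases, 23 of 34 effectors and 9 of 15 sensing genes, against 4.34% of all genes. Of the 8 genes with groups apart that matched a window, 4 held the motif, against 22 of 48 in the 3 lists. A link between motif and change was not tested. A match is a description of these letters and was not tested as a binding site.

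Of the 17 antigen presentation genes tested, 16 were lower (median -0.11), and the 5 with an unadjusted p under 0.05 (4.34% of all genes on that side) serve MHC class I or its peptide supply. H2-K1, a class I heavy chain, had 69.6, 71.2, 75.5, 69.8 and 66.8 FPKM in encenicline 1 to 5, against 73.7, 79.6, 93.8, 116 and 127 FPKM in saline 1 to 5. The H2-K1 log2 fold change was -0.44 (SE 0.15, Benjamini-Hochberg adjusted p = 0.503 in limma). H2-D1, the other classical class I chain measured, stood at 106 to 116 FPKM with encenicline, against 119.9 to 186 FPKM with saline (log2 fold change -0.37, SE 0.13, Benjamini-Hochberg adjusted p = 0.503 in limma), and it was the member whose groups lay apart (0.732% of all genes on that side). Tap1, which pumps peptides into the endoplasmic reticulum, and Psmb10, an immunoproteasome subunit, had log2 fold changes of -0.35 and -0.22. The class II genes H2-Aa, H2-Ab1, H2-Eb1 and Cd74 lay between -0.08 and -0.02. Reads of the class I genes are uncertain because H2 genes resemble each other. The median of the list was -0.24 without saline 1.

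The encenicline libraries were alike in these lists and the saline libraries were not. The mean centred log2 value of the effectors over all 15 libraries was -0.055, -0.168, -0.239, -0.114 and -0.076 in encenicline 1 to 5, against -0.022, 0.053, 0.530, 0.242 and 0.567 in saline 1 to 5. Saline 3 and saline 5 were the highest libraries, and saline 1 lay nearest to encenicline. Without saline 5 the median log2 fold change of the effectors was -0.28, the nearest to 0 with any 1 library left out. Markers of resident macrophages, which respond to interferon, were lower in 18 of 19 tested (median -0.23), with summed levels of 213 to 286 FPKM with encenicline and 254 to 344 FPKM with saline. Cd209f, the marker below the filter, reached at most 2.07 FPKM. Their part in the interferon result was not tested. In whole-tissue RNA, fewer cells of a type and less RNA per cell cannot be told apart.

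Extracellular matrix genes were another group on the lower side. Basement membrane genes, which encode the sheet around cardiomyocytes and capillaries, were lower in 19 of 21 tested (median -0.32), with 11 at an unadjusted p under 0.05 (4.34% of all genes). Agrn (ENSMUSG00000041936, GRCm38 chromosome 4, 156165290 to 156197488, minus strand) encodes agrin, a heparan sulfate proteoglycan. It had 6.09, 7.23, 7.92, 6.54 and 6.23 FPKM in encenicline 1 to 5, against 8.58, 9.59, 9.92, 9.34 and 11.3 FPKM in saline 1 to 5. The Agrn log2 fold change was -0.49 (SE 0.11, Benjamini-Hochberg adjusted p = 0.4 in limma). Every encenicline library lay below every saline library. Nid2, which links laminin to collagen IV, had 3.43, 4.33, 5.53, 4.48 and 4.42 FPKM in encenicline 1 to 5, against 6.30, 7.19, 7.498, 6.40 and 5.50 FPKM in saline 1 to 5 (log2 fold change -0.53, SE 0.11, Benjamini-Hochberg adjusted p = 0.423 in limma), and its groups touched at encenicline 3 and saline 5. Col18a1, the source of endostatin, had 1.87, 2.25, 3.06, 2.37 and 2.46 FPKM in encenicline 1 to 5, against 3.72, 3.46, 4.88, 3.56 and 2.84 FPKM in saline 1 to 5 (log2 fold change -0.53, SE 0.17, Benjamini-Hochberg adjusted p = 0.499 in limma), and Lama4, a laminin chain of vessels, had 6.45 to 7.90 FPKM with encenicline, against 7.65 to 10.6 FPKM with saline. The Lama4 log2 fold change was -0.32 (SE 0.10, Benjamini-Hochberg adjusted p = 0.499 in limma). Col15a1, another endostatin-type collagen, was the other gene with groups apart (0.732% of all genes on the lower side). It was at 7.56 to 11.3 FPKM with encenicline, against 11.8 to 24.9 FPKM with saline (log2 fold change -0.73, SE 0.31, Benjamini-Hochberg adjusted p = 0.525 in limma), while donepezil 4 had 35.2 FPKM. Without saline 3 the median of the list was -0.19. Under TPM all 21 members were lower, and 2 of them lay above the median of all genes in that scaling (-0.13).

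Fibrillar and fibril-associated collagens were lower in 12 of 12 tested (median -0.58), yet none reached an unadjusted p under 0.05. Col3a1, a main collagen of scar, had 11.1, 11.4, 15.0, 14.9 and 17.4 FPKM in encenicline 1 to 5, against 30.6, 24.3, 53.4, 26.4 and 13.8 FPKM in saline 1 to 5. The Col3a1 log2 fold change was -0.95 (SE 0.59, Benjamini-Hochberg adjusted p = 0.635 in limma). Saline 3 was the highest library, and saline 5 fell among the encenicline libraries. Col6a3 was the 1 member whose groups lay apart (0.732% of all genes on the lower side). It had 2.21 to 3.09 FPKM with encenicline, against 3.17 to 5.67 FPKM with saline. The Col6a3 log2 fold change was -0.57 (SE 0.27, Benjamini-Hochberg adjusted p = 0.537 in limma). Col1a1, the chain of the commonest collagen, had 9.80, 12.6, 19.8, 15.7 and 18.2 FPKM in encenicline 1 to 5, against 29.3, 22.4, 42.8, 22.7 and 13.6 FPKM in saline 1 to 5 (95% confidence interval of the log2 fold change -1.97 to 0.55). Matricellular and fibrotic glycoproteins were lower in 23 of 26 (median -0.39), with Sparcl1, an adhesion-modulating protein, at the smallest p (-0.19). Of the glycoproteins 1 reached an unadjusted p under 0.05 on the lower side, where 4.34% of all genes did so. Myofibroblast markers were lower in 9 of 9 tested (median -0.71), with summed levels of 59.4 to 134 FPKM with encenicline and 86.3 to 182 FPKM with saline. None of these markers reached that level, and no gene of either list had groups that lay apart. Postn, secreted by activated fibroblasts, had 4.21, 3.12, 6.60, 8.01 and 4.13 FPKM in encenicline 1 to 5, against 15.3, 4.36, 32.1, 10.9 and 3.37 FPKM in saline 1 to 5 (95% confidence interval of the log2 fold change -2.66 to 0.84). Saline 3 was the highest library again. Without it the medians were -0.40 for the collagens, -0.17 for the glycoproteins and -0.31 for the myofibroblast markers, and donepezil 4, with 155 FPKM of Postn, enters the shared spread against which these genes were tested. The list of myofibroblast markers shares members with that of the glycoproteins.

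Flna, Plekha6, Amigo3, Sec23b and Nr2c1 completed the 12 lower genes with the smallest p. Flna encodes filamin A, which crosslinks actin. It had 16.5, 14.7, 19.5, 16.5 and 17.8 FPKM in encenicline 1 to 5, against 22.3, 21.1, 21.4, 21.4 and 25.5 FPKM in saline 1 to 5 (log2 fold change -0.39, SE 0.09, Benjamini-Hochberg adjusted p = 0.428 in limma), and the groups lay apart. Sec23b, a coat protein of vesicles leaving the endoplasmic reticulum, stood at 1.95, 2.20, 2.16, 2.26 and 2.40 FPKM in encenicline 1 to 5, against 2.68, 2.71, 2.54, 2.95 and 2.62 FPKM in saline 1 to 5. The Sec23b log2 fold change was -0.25 (SE 0.06, Benjamini-Hochberg adjusted p = 0.428 in limma). Nr2c1, an orphan nuclear receptor, had 1.38, 1.51, 1.52, 1.51 and 1.54 FPKM in encenicline 1 to 5, against 1.85, 1.95, 2.00, 1.83 and 2.04 FPKM in saline 1 to 5 (log2 fold change -0.29, SE 0.07, Benjamini-Hochberg adjusted p = 0.428 in limma), in both cases without overlap. Amigo3, an adhesion protein, ranged over 0.469 to 1.10 FPKM with encenicline, against 1.34 to 1.99 FPKM with saline, and Plekha6 over 4.99 to 7.26 FPKM with encenicline, against 6.86 to 9.41 FPKM with saline.

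Genes of cell division lay lower as well. Mitosis genes were lower in 15 of 15 tested (median -0.31), with 6 at an unadjusted p under 0.05 on that side, and DNA replication genes in 12 of 16 (median -0.07), with 3, where 4.34% of all genes reached it. Mcm3, a subunit of the replicative helicase, had 1.47, 1.46, 1.36, 1.70 and 1.37 FPKM in encenicline 1 to 5, against 1.62, 1.95, 2.13, 2.86 and 2.31 FPKM in saline 1 to 5. The Mcm3 log2 fold change was -0.43 (SE 0.11, Benjamini-Hochberg adjusted p = 0.428 in limma). Encenicline 4 just exceeded saline 1. Mcm2, of the same helicase, and Nusap1, which binds spindle microtubules, were the members whose groups lay apart (0.732% of all genes on the lower side). Mcm2 had 0.506 to 0.901 FPKM with encenicline, against 0.919 to 1.39 FPKM with saline. Mki67, the proliferation antigen, had 0.482, 0.561, 0.726, 0.494 and 0.596 FPKM in encenicline 1 to 5, against 0.600, 1.084, 1.19, 1.39 and 0.672 FPKM in saline 1 to 5 (log2 fold change -0.45, SE 0.16, Benjamini-Hochberg adjusted p = 0.503 in limma), and Kif20a, a kinesin of cytokinesis, 0.369 to 0.497 FPKM with encenicline, against 0.394 to 1.18 FPKM with saline. The Kif20a log2 fold change was -0.51 (SE 0.15, Benjamini-Hochberg adjusted p = 0.476 in limma). Saline 2, 3 and 4 carried the higher values of Mki67 and saline 1 and 5 lay with the encenicline libraries. Most levels here were near 1 FPKM or below, where the pseudocount of 0.5 shrinks a fold change. The median of the replication genes was -0.027 without saline 4 and -0.12 without encenicline 4.

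**Figure D3:**
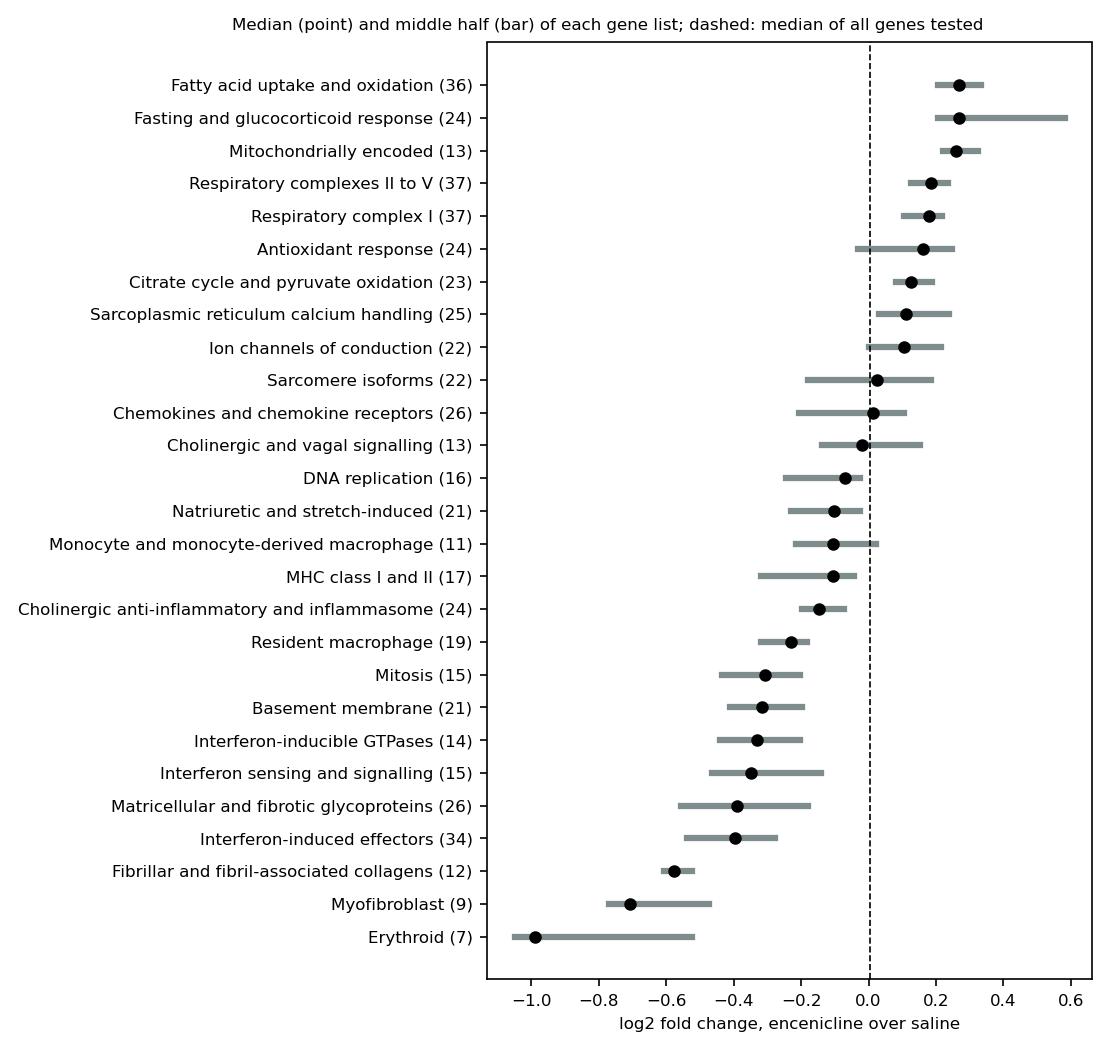
Median log2 fold change of encenicline over saline for 27 gene lists (point) with the interquartile range of the members (bar) and the number tested in brackets; the dashed line is the median of all genes (0.004). Erythroid, myofibroblast and collagen lists lie lowest (-0.99, -0.71 and -0.58) and fatty acid, fasting and mitochondrially encoded lists highest (0.27, 0.27 and 0.26); under TPM the citrate cycle, sarcoplasmic reticulum, ion channel, sarcomere and antioxidant medians fall below 0, where that of all genes is -0.13, as does that of the chemokines. The sarcomere and cholinergic medians also change sign after quantile normalization, and the sarcomere and chemokine medians with mitochondrially encoded genes left out of the sum.

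On the higher side, calcium handling by the sarcoplasmic reticulum, the store that releases calcium for each beat, held the gene with the smallest p. Calr3 (ENSMUSG00000019732, GRCm38 chromosome 8, 72424176 to 72443870, minus strand) encodes calreticulin 3, a chaperone of the endoplasmic reticulum known best from testis. It had 9.77, 12.5, 7.07, 9.81 and 9.72 FPKM in encenicline 1 to 5 and 9.80, 10.8, 8.14, 6.58 and 9.89 FPKM in donepezil 1 to 5, against 5.97, 6.34, 4.72, 5.66 and 5.82 FPKM in saline 1 to 5. The Calr3 log2 fold change was 0.71 (SE 0.14, Benjamini-Hochberg adjusted p = 0.368 in limma). Encenicline 3 was the lowest of its group and still lay above every saline library. Tmem38b encodes TRIC-B, a potassium channel that balances charge during calcium release. It had 15.4, 10.9, 11.4, 10.6 and 14.0 FPKM in encenicline 1 to 5, against 10.9, 8.51, 9.09, 8.16 and 6.73 FPKM in saline 1 to 5 (log2 fold change 0.50, SE 0.12, Benjamini-Hochberg adjusted p = 0.428 in limma), where encenicline 4 fell below saline 1. Hrc, a calcium buffer of the store, had 332, 366, 314, 357 and 334 FPKM in encenicline 1 to 5, against 268, 312, 189, 230.3 and 299.5 FPKM in saline 1 to 5 (log2 fold change 0.41, SE 0.16, Benjamini-Hochberg adjusted p = 0.514 in limma), and Trdn, triadin, 24.4 to 33.4 FPKM with encenicline, against 18.9 to 25.3 FPKM with saline. The Trdn log2 fold change was 0.24 (SE 0.11, Benjamini-Hochberg adjusted p = 0.532 in limma). Of the list 21 of 25 tested were higher (median 0.11), 5 of them at an unadjusted p under 0.05 (4.87% of all genes). Groups lay apart for 2 of them, Calr3 and Hrc (0.963% of all genes on that side). Under TPM 11 were higher and the median was -0.03, which is 0.11 above the median of all genes in that scaling. The median of the list was 0.055 without saline 5.

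Among ion channels of conduction 16 of 22 were higher (median 0.11), and under TPM 7 were (median -0.05). Under TPM 16 of 22 lay above the median of all genes (-0.13). Kcna5, which carries a repolarising potassium current, had 24.1, 17.6, 18.3, 18.5 and 17.3 FPKM in encenicline 1 to 5, against 19.9, 11.1, 11.01, 8.78 and 18.9 FPKM in saline 1 to 5. The Kcna5 log2 fold change was 0.51 (SE 0.21, Benjamini-Hochberg adjusted p = 0.514 in limma). Saline 1 and saline 5 lay within the range of encenicline. Scn4b, a sodium channel subunit, had 16.5, 15.8, 15.7, 13.8 and 16.5 FPKM in encenicline 1 to 5, against 15.6, 12.5, 11.96, 12.2 and 8.77 FPKM in saline 1 to 5 (log2 fold change 0.36, SE 0.13, Benjamini-Hochberg adjusted p = 0.503 in limma), and Kcnj12, an inward rectifier, 10.3 to 16.5 FPKM with encenicline, against 6.46 to 12.7 FPKM with saline. The Kcnj12 log2 fold change was 0.47 (SE 0.20, Benjamini-Hochberg adjusted p = 0.525 in limma). Hcn4, the pacemaker channel, had 1.47 to 2.76 FPKM with encenicline, against 1.09 to 1.796 FPKM with saline. The Hcn4 log2 fold change was 0.32 (SE 0.15, Benjamini-Hochberg adjusted p = 0.537 in limma). The median of the list was 0.030 without saline 3.

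Fatty acid uptake and oxidation genes were higher in 32 of 36 tested (median 0.27), with 11 at an unadjusted p under 0.05 (4.87% of all genes). Fabp3, the carrier of fatty acids inside cardiomyocytes, had 4893, 4499, 4040.2, 5318 and 4188 FPKM in encenicline 1 to 5 and 3981, 4671, 4427, 3017 and 4686 FPKM in donepezil 1 to 5, against 3965, 3510.0, 3633, 3268 and 3916 FPKM in saline 1 to 5. The Fabp3 log2 fold change was 0.32 (SE 0.14, Benjamini-Hochberg adjusted p = 0.525 in limma). The lowest encenicline library exceeded the highest saline library by little. Cd36, which takes fatty acids up, had 686, 624, 533, 531 and 616 FPKM in encenicline 1 to 5, against 494, 494, 504, 445 and 491 FPKM in saline 1 to 5 (log2 fold change 0.30, SE 0.12, Benjamini-Hochberg adjusted p = 0.525 in limma), and saline 4 was the lowest. Hadha, a subunit of the trifunctional protein of beta oxidation, had 186, 195, 163, 177 and 178 FPKM in encenicline 1 to 5, against 148, 154, 101.03, 130.0 and 162 FPKM in saline 1 to 5 (log2 fold change 0.39, SE 0.15, Benjamini-Hochberg adjusted p = 0.514 in limma), also with groups apart. Lpl, which frees fatty acids from lipoproteins, stood at 445 to 537 FPKM with encenicline, against 299 to 452 FPKM with saline. The Lpl log2 fold change was 0.40 (SE 0.14, Benjamini-Hochberg adjusted p = 0.503 in limma). Acot1, a thioesterase with a near-identical neighbour, stood at 4.21 to 10.4 FPKM with encenicline, against 1.65 to 4.77 FPKM with saline (log2 fold change 0.87, SE 0.32, Benjamini-Hochberg adjusted p = 0.506 in limma), and Plin5, a lipid droplet coat, and Lipe, a lipase, at log2 fold changes of 0.44 and 0.34. The 4 members on the lower side were Ppara (-0.22), the receptor that drives this program, Cpt1a (-0.17) and Cpt1b (-0.12), which load fatty acids for import into mitochondria, and Ucp2 (-0.18), an uncoupling protein. Under TPM 28 were higher (median 0.10) and 32 lay above the median of all genes (-0.13). Without saline 3 the median of the list was 0.18.

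Genes of the citrate cycle were higher in 23 of 23 (median 0.12), of respiratory complex I in 33 of 37 (0.18), of complexes II to V in 37 of 37 (0.18) and among those encoded in mitochondria in 11 of 13 (0.26). An unadjusted p under 0.05 on the higher side was reached by 2, 5, 1 and 1 of them, where 4.87% of all genes did so. Ndufa3, a subunit of complex I, had 249, 216, 162, 268 and 206 FPKM in encenicline 1 to 5, against 176, 162, 121, 165 and 198 FPKM in saline 1 to 5 (log2 fold change 0.42, SE 0.16, Benjamini-Hochberg adjusted p = 0.514 in limma), and Idh3g, of the citrate cycle, 135 to 175 FPKM with encenicline, against 93.8 to 160.2 FPKM with saline. The Idh3g log2 fold change was 0.32 (SE 0.14, Benjamini-Hochberg adjusted p = 0.532 in limma). Cox7a1, the muscle form of a cytochrome oxidase subunit, had 1016, 944, 653, 1052 and 984 FPKM in encenicline 1 to 5, against 716, 832, 463, 698 and 808 FPKM in saline 1 to 5. The Cox7a1 log2 fold change was 0.41 (SE 0.19, Benjamini-Hochberg adjusted p = 0.537 in limma). Encenicline 3 and saline 3 were the low libraries of their groups. The mitochondrial share of reads was 21.8 to 27.0% with encenicline and 19.5 to 23.7% with saline. Saline 5 had the lowest share (19.5%) and the highest mean centred log2 values of the saline libraries (0.208 for complex I, 0.209 for complexes II to V). Saline 3 had the next lowest share (20.9%) and the lowest values (-0.337 and -0.4). Encenicline 3 had the lowest share of its group (21.8%) and its lowest values (-0.077 and -0.114). Encenicline 1 had the highest share (27.0%), while encenicline 4 had the highest values (0.341 and 0.338). The part of the share in these lists was not tested. The counts above 0 depended on scaling: under TPM 10 of 23, 19 of 37, 25 of 37 and 10 of 13 were higher, and after quantile normalization 14, 29, 24 and 8. Above the median of all genes, which was -0.13 under TPM, lay 21, 33, 37 and 11 of them under TPM. After quantile normalization 13, 26, 24 and 6 lay above the median of all genes in that scaling (0.005). The medians of the lists were then 0.039, 0.037, 0.034 and 0. Without saline 3 the medians of the citrate cycle, complex I and complexes II to V were 0.061, 0.10 and 0.097, and without encenicline 1 that of the mitochondrially encoded genes was 0.17.

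**Figure D4:**
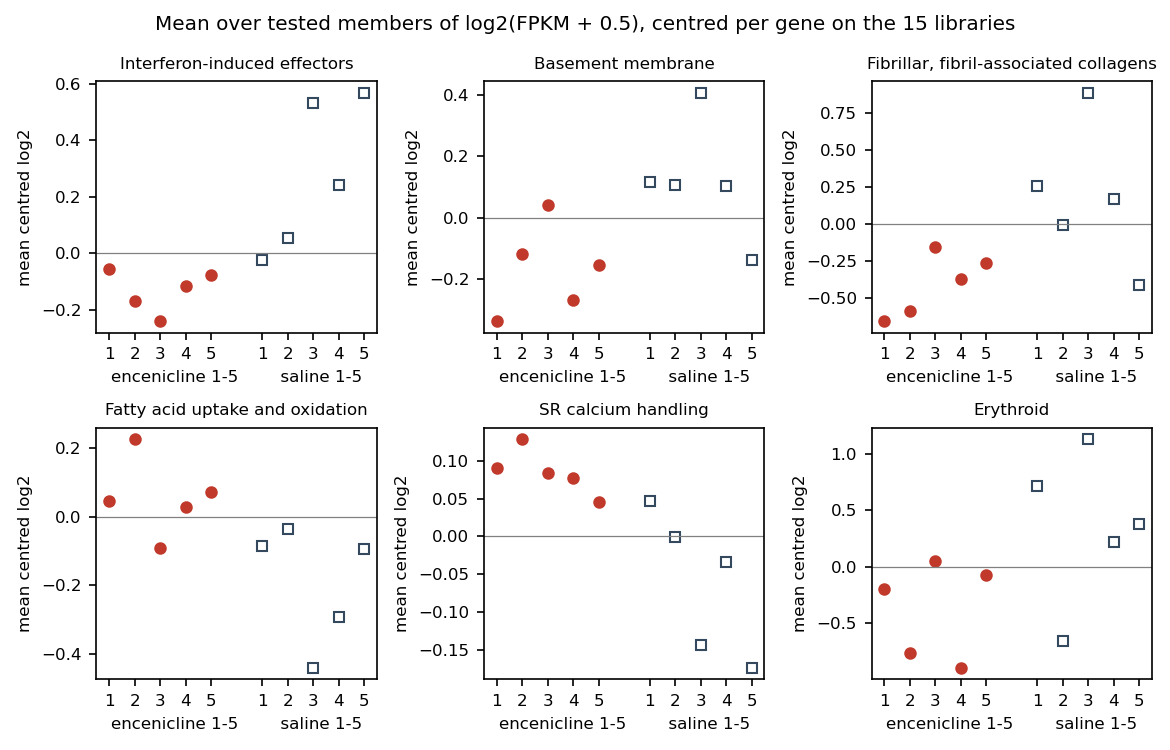
Mean over tested members of log2(FPKM + 0.5), each gene centred on the 15 libraries, for 6 gene lists in encenicline 1 to 5 (left, filled) and saline 1 to 5 (right, open). Effectors of interferon range over -0.239 to -0.055 with encenicline and -0.022 to 0.567 with saline; in the fatty acid and calcium panels saline 3 lies lowest or next to lowest, and in the matrix panels it lies highest.

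Genes known to answer to fasting and glucocorticoids were higher in 20 of 24 tested (median 0.27), with 6 higher and 1 lower at an unadjusted p under 0.05 (4.87% and 4.34% of all genes). Bcl6 (ENSMUSG00000022508, GRCm38 chromosome 16, 23965052 to 23988852, minus strand), a transcriptional repressor that opposes lipid-burning genes in the liver of mice, had 3.16, 3.87, 3.97, 4.21 and 4.45 FPKM in encenicline 1 to 5, against 1.89, 2.74, 1.97, 2.61 and 3.11 FPKM in saline 1 to 5. The Bcl6 log2 fold change was 0.59 (SE 0.13, Benjamini-Hochberg adjusted p = 0.4 in limma). Encenicline 1 was the lowest of its group and just exceeded saline 5. Fbxo32, a ubiquitin ligase of muscle wasting, had 21.0, 21.5, 23.8, 18.0 and 18.8 FPKM in encenicline 1 to 5 and 36.2, 25.9, 38.1, 31.1 and 23.5 FPKM in donepezil 1 to 5, against 17.4, 14.1, 14.8, 12.7 and 14.7 FPKM in saline 1 to 5. The Fbxo32 log2 fold change was 0.47 (SE 0.13, Benjamini-Hochberg adjusted p = 0.428 in limma). Trim63, its counterpart MuRF1, had 56.7, 51.0, 53.0, 57.7 and 51.0 FPKM in encenicline 1 to 5, against 43.6, 46.0, 38.7, 46.4 and 50.6 FPKM in saline 1 to 5 (log2 fold change 0.26, SE 0.27, Benjamini-Hochberg adjusted p = 0.77 in limma), and for both genes the encenicline and saline groups lay apart. Fkbp5, a chaperone of the glucocorticoid receptor, had 14.6, 10.0, 9.71, 9.16 and 10.1 FPKM in encenicline 1 to 5, against 12.2, 5.68, 5.66, 3.71 and 4.07 FPKM in saline 1 to 5 (log2 fold change 0.83, SE 0.25, Benjamini-Hochberg adjusted p = 0.499 in limma), where saline 1 lay among the encenicline libraries. Pdk4, the kinase that shuts pyruvate dehydrogenase, had 176, 299.9, 191, 168 and 243 FPKM in encenicline 1 to 5 and 1186, 854, 789, 668 and 814 FPKM in donepezil 1 to 5, against 143, 113, 197, 100.7 and 104 FPKM in saline 1 to 5 (log2 fold change 0.72, SE 0.21, Benjamini-Hochberg adjusted p = 0.436 in limma), and saline 3 exceeded 3 encenicline libraries. With groups taken from the treatment field, which moves encenicline 1 to donepezil and donepezil 1 to saline, the median of the list was 0.039, and without both libraries it was 0.29.

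Bnip3, a receptor for the removal of mitochondria, was alike in all encenicline libraries. It had 74.5, 77.8, 73.0, 79.1 and 76.3 FPKM in encenicline 1 to 5 and 129, 106, 117, 81.4 and 83.4 FPKM in donepezil 1 to 5, against 60.7, 53.1, 60.6, 51.0 and 40.5 FPKM in saline 1 to 5 (log2 fold change 0.53, SE 0.13, Benjamini-Hochberg adjusted p = 0.428 in limma), with the donepezil libraries highest. Slc40a1, the iron exporter ferroportin, had 4.34, 4.79, 3.97, 3.49 and 4.79 FPKM in encenicline 1 to 5, against 3.01, 3.70, 2.43, 2.40 and 2.28 FPKM in saline 1 to 5 (log2 fold change 0.56, SE 0.12, Benjamini-Hochberg adjusted p = 0.4 in limma), where encenicline 4 fell below saline 2. Hsd17b11, an enzyme of lipid droplets, had 15.4, 11.6, 12.6, 11.9 and 13.9 FPKM in encenicline 1 to 5 and 15.1, 17.8, 17.7, 17.2 and 19.6 FPKM in donepezil 1 to 5, against 9.88, 10.7, 10.8, 9.40 and 9.99 FPKM in saline 1 to 5 (log2 fold change 0.35, SE 0.08, Benjamini-Hochberg adjusted p = 0.428 in limma), and Psmc1, a proteasome ATPase, 65.7 to 80.3 FPKM with encenicline, against 56.5 to 63.8 FPKM with saline. The Psmc1 log2 fold change was 0.28 (SE 0.07, Benjamini-Hochberg adjusted p = 0.428 in limma). Dcaf6, an adaptor of a ubiquitin ligase, stood at 13.1 to 14.0 FPKM with encenicline, against 11.1 to 12.1 FPKM with saline, and Dbr1, which opens intron lariats, at 2.79 to 3.51 FPKM with encenicline, against 1.98 to 2.64 FPKM with saline, each with groups apart. Exosc3, a subunit of the RNA exosome, stood at 9.48 to 10.5 FPKM with encenicline, against 6.79 to 9.49 FPKM with saline, where encenicline 4 and saline 2 met. Ube2ql1, a ubiquitin-conjugating enzyme, had 4.69, 6.31, 4.89, 5.34 and 6.76 FPKM in encenicline 1 to 5 and 4.10, 3.76, 3.43, 3.17 and 4.10 FPKM in donepezil 1 to 5, against 3.93, 4.23, 4.17, 4.47 and 4.09 FPKM in saline 1 to 5 (log2 fold change 0.37, SE 0.10, Benjamini-Hochberg adjusted p = 0.428 in limma), and Rhbdl3, of the rhomboid protease family, 5.64, 7.11, 6.39, 5.18 and 6.59 FPKM in encenicline 1 to 5 and 3.59, 3.95, 3.68, 2.64 and 3.84 FPKM in donepezil 1 to 5, against 3.76, 4.31, 3.76, 4.20 and 5.57 FPKM in saline 1 to 5. The Rhbdl3 log2 fold change was 0.48 (SE 0.12, Benjamini-Hochberg adjusted p = 0.428 in limma).

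**Figure D5:**
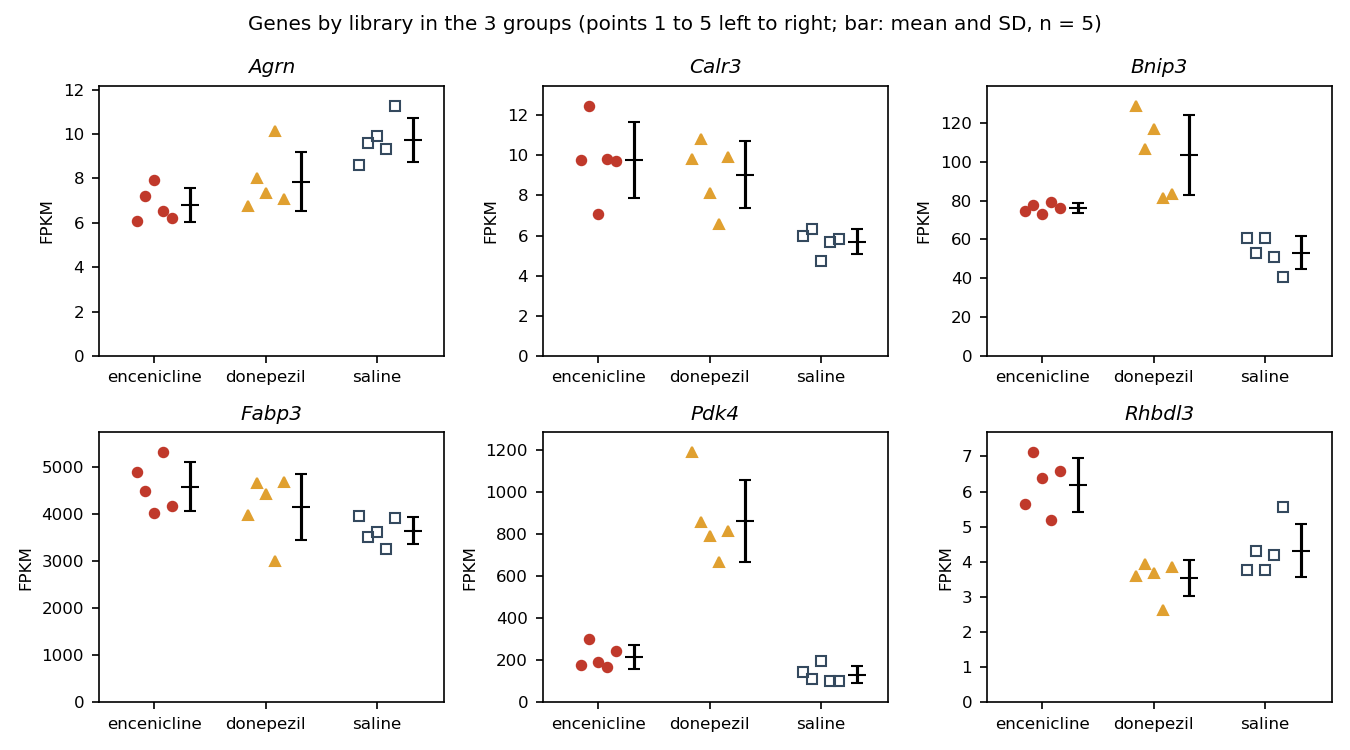
FPKM of 6 genes in encenicline (circles), donepezil (triangles) and saline (squares), 1 point per library with mean and SD (n = 5). Bnip3 spans 73.0 to 79.1 FPKM with encenicline and 40.5 to 60.7 FPKM with saline, Pdk4 stands apart with donepezil at 668 FPKM or more, and Rhbdl3 is highest with encenicline.

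Antioxidant genes were higher in 17 of 24 tested (median 0.16), and under TPM in 12 of 24. Under TPM 17 of 24 lay above the median of all genes (-0.13). Of the 24 genes tested, 7 had an unadjusted p under 0.05 on the higher side (4.87% of all genes). Txnrd2, the mitochondrial thioredoxin reductase, had 8.41, 8.64, 8.16, 9.89 and 8.79 FPKM in encenicline 1 to 5, against 7.66, 7.92, 5.87, 7.56 and 7.11 FPKM in saline 1 to 5 (log2 fold change 0.27, SE 0.09, Benjamini-Hochberg adjusted p = 0.499 in limma) with groups apart. Cat, catalase, stood at 94.3, 109, 105, 109 and 99.7 FPKM in encenicline 1 to 5, against 97.2, 88.7, 82.4, 79.9 and 90.4 FPKM in saline 1 to 5 (log2 fold change 0.24, SE 0.08, Benjamini-Hochberg adjusted p = 0.499 in limma), where encenicline 1 fell below saline 1. Gpx4, which reduces lipid peroxides, had 327 to 467 FPKM with encenicline, against 309.5 to 344 FPKM with saline (log2 fold change 0.25, SE 0.09, Benjamini-Hochberg adjusted p = 0.506 in limma), and Gsta4, a glutathione transferase, 46.1 to 64.1 FPKM with encenicline, against 32.04 to 52.8 FPKM with saline. The Gsta4 log2 fold change was 0.37 (SE 0.15, Benjamini-Hochberg adjusted p = 0.514 in limma).

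Erythroid genes lay lowest of all the lists described (median -0.99 over 7 tested). Hba-a1, an alpha globin, had 75.7, 42.4, 107, 42.9 and 93.0 FPKM in encenicline 1 to 5, against 205, 49.6, 276, 119.8 and 184 FPKM in saline 1 to 5 (log2 fold change -1.10, SE 0.43, Benjamini-Hochberg adjusted p = 0.514 in limma), and Alas2, the first enzyme of heme synthesis in red cells, 1.43, 0.783, 1.47, 0.265 and 1.51 FPKM in encenicline 1 to 5, against 3.06, 0.886, 5.69, 1.99 and 1.89 FPKM in saline 1 to 5. The Alas2 log2 fold change was -0.92 (SE 0.37, Benjamini-Hochberg adjusted p = 0.514 in limma). Saline 1 and saline 3 were the highest libraries of Alas2, and saline 2 lay among the encenicline libraries of both genes. Of 12 erythroid markers 6 of 7 tested were lower, Rhag was at 0 in every library, and the sum of the list was 159 to 318 FPKM with encenicline and 170 to 781 FPKM with saline. Without saline 3 the median was -0.67. Reads of the globin genes are uncertain because their copies are nearly identical.

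The receptor that encenicline targets was hardly detected in these hearts. Chrna7 (ENSMUSG00000030525, GRCm38 chromosome 7, 63098692 to 63212569, minus strand) had 14 reads in all 15 libraries: 0, 1, 0, 0 and 1 in encenicline 1 to 5, 5, 1, 1, 1 and 0 in donepezil 1 to 5, and 0, 2, 0, 2 and 0 in saline 1 to 5. A difference of Chrna7 between groups was not detectable at this depth. Of 26 cholinergic and vagal genes 13 could be tested, 6 of them higher (median -0.02, 0.06 without encenicline 1, 0.03 after quantile normalization). Chrm2, the muscarinic receptor of the heart, had 14.8, 14.7, 11.8, 9.73 and 16.1 FPKM in encenicline 1 to 5, against 9.15, 12.4, 7.37, 10.1 and 9.51 FPKM in saline 1 to 5. The Chrm2 log2 fold change was 0.45 (SE 0.18, Benjamini-Hochberg adjusted p = 0.514 in limma). Encenicline 1, 2 and 5 exceeded every saline library, and encenicline 3 and 4 lay among them. Ache, acetylcholinesterase, stood at 0.403 to 0.869 FPKM with encenicline, against 0.452 to 0.891 FPKM with saline. The Ache log2 fold change was -0.02 (SE 0.13, Benjamini-Hochberg adjusted p = 0.97 in limma).

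Of the 24 genes tested from the inflammatory pathway downstream of that receptor, 20 were lower (median -0.15). An unadjusted p under 0.05 was reached on the lower side by Il18, Bcl3 and Nfkb2 (4.34% of all genes), while Hmgb1, a nuclear protein released as an alarm signal, was higher at that level (0.22), as were 4.87% of all genes. Bcl3, a nuclear partner of NF-kB, had 1.87, 2.55, 2.09, 2.24 and 2.59 FPKM in encenicline 1 to 5, against 2.68, 2.93, 3.70, 3.45 and 2.85 FPKM in saline 1 to 5 (log2 fold change -0.39, SE 0.14, Benjamini-Hochberg adjusted p = 0.506 in limma), its groups apart. Il18, a cytokine matured by the inflammasome, had 4, 2, 0, 4 and 0 reads in encenicline 1 to 5, against 9, 2, 14, 11 and 6 reads in saline 1 to 5. The log2 fold changes of Jak2, Stat3 and Socs3 were 0.07, -0.09 and -0.20, with 95% confidence intervals of -0.14 to 0.28, -0.31 to 0.13 and -0.59 to 0.20, and that of Jak2 was -0.08 under TPM. Ccrl2, the receptor in the series title, had 6.03, 5.86, 5.76, 5.28 and 5.84 FPKM in encenicline 1 to 5, against 6.94, 6.07, 4.97, 4.07 and 5.83 FPKM in saline 1 to 5 (95% confidence interval of the log2 fold change -0.35 to 0.47). Its groups overlapped, and its log2 fold change was 0.06, or -0.09 under TPM. Ccr2, the receptor of recruited monocytes, stood at -0.02 (-0.68 to 0.64), Cd68, a macrophage lysosomal protein, at -0.30 (-0.79 to 0.18), Adgre1, the F4/80 antigen, at -0.13 (-0.74 to 0.47) and Il1b, a cytokine, at 0.02 (-0.61 to 0.64), each a log2 fold change with its 95% confidence interval. Cxcl12, a chemokine of stromal cells, had 32.1, 28.7, 36.6, 28.0 and 30.8 FPKM in encenicline 1 to 5, against 36.4, 40.5, 40.0, 39.1 and 37.0 FPKM in saline 1 to 5 (log2 fold change -0.31, SE 0.10, Benjamini-Hochberg adjusted p = 0.499 in limma), with encenicline 3 the 1 library above the lowest saline library. Ccl8, a chemokine of macrophages, stood at 0.356 to 1.75 FPKM with encenicline, against 0.911 to 4.79 FPKM with saline. The Ccl8 log2 fold change was -1.09 (SE 0.38, Benjamini-Hochberg adjusted p = 0.503 in limma). Chemokines and their receptors had a median of 0.01 over 26 tested (-0.13 under TPM, -0.08 without saline 5), and monocyte markers -0.11 over 11 (-0.0084 without encenicline 2).

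Natriuretic genes, which report stretch of the heart, and sarcomere genes did not separate the groups. Nppa, atrial natriuretic peptide, had 29.2, 44.9, 79.3, 119 and 57.0 FPKM in encenicline 1 to 5, against 124, 41.6, 287, 104 and 36.2 FPKM in saline 1 to 5 (95% confidence interval of the log2 fold change -1.97 to 0.79). Nppb, the brain form, had 125 to 369 FPKM with encenicline, against 94.3 to 512 FPKM with saline (-1.48 to 1.24). For Myh7, the fetal myosin, the interval was -1.57 to 0.78 around a log2 fold change of -0.39. The level of Nppa differed widely within both groups, and donepezil 4, at 857 FPKM of Nppa, enters the shared spread. The natriuretic and stretch-induced list had a median of -0.10 over 21 tested, and -0.0041 without saline 3. Sarcomere genes had a median of 0.03 over 22 tested, which was -0.11 under TPM, -0.12 after quantile normalization and -0.019 without encenicline 4. Myh7b, a slow myosin of muscle, had 6.69 to 8.97 FPKM with encenicline, against 8.06 to 12.7 FPKM with saline. The Myh7b log2 fold change was -0.33 (SE 0.14, Benjamini-Hochberg adjusted p = 0.525 in limma).

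Set directly against donepezil, encenicline differed in 125 genes (0.933% of those tested, limma with Benjamini-Hochberg adjustment), 7 of them among the 148 tested genes named here. Pdk4 was lower with encenicline than with donepezil (log2 fold change -2.01, SE 0.21, Benjamini-Hochberg adjusted p = 0.000193 in limma), as were Hsd17b11 (log2 fold change -0.40, SE 0.08, Benjamini-Hochberg adjusted p = 0.0363 in limma) and Nr2c1 (log2 fold change -0.36, SE 0.07, Benjamini-Hochberg adjusted p = 0.0296 in limma). Rhbdl3 was higher (log2 fold change 0.73, SE 0.12, Benjamini-Hochberg adjusted p = 0.00891 in limma), with all encenicline libraries above all donepezil libraries, as were Ube2ql1 (log2 fold change 0.53, SE 0.10, Benjamini-Hochberg adjusted p = 0.0174 in limma), Hcn4 (log2 fold change 0.71, SE 0.15, Benjamini-Hochberg adjusted p = 0.0368 in limma) and Cbr2, a carbonyl reductase of macrophages (log2 fold change 0.62, SE 0.14, Benjamini-Hochberg adjusted p = 0.0475 in limma). These calls depend on the labels: 4 remained without encenicline 1 and donepezil 1 (Pdk4, Rhbdl3, Ube2ql1 and Hsd17b11). With groups taken from the treatment field limma called 0 of the 7, and the smallest Benjamini-Hochberg adjusted p among them was 0.270. That grouping counts donepezil 1, the library with the highest Pdk4, as saline, and encenicline 1 as donepezil. Both drug contrasts share the 5 saline libraries, so values are given side by side without a measure of likeness. Donepezil against saline called 284 genes (2.12%). Ddx58 had a log2 fold change of -0.40 with encenicline and -0.36 with donepezil (limma with Benjamini-Hochberg adjusted p = 0.368 and 0.0241). Calr3 had 0.71 with encenicline and 0.61 with donepezil (adjusted p = 0.368 and 0.0364 in limma). The interferon effectors had a median of -0.40 with encenicline and -0.43 with donepezil, and the fasting genes 0.27 with encenicline and 1.06 with donepezil. The fatty acid genes had 0.27 with encenicline and 0.12 with donepezil, and the collagens -0.58 with encenicline and 0.05 with donepezil, but both donepezil medians rest on donepezil 4. Without that library, an alternative added after seeing the data, they were 0.27 for the fatty acid genes and -0.53 for the collagens.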

How the data were processed

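The authors deposited a gene table of FPKM values for the 15 libraries, with gene lengths and coordinates. The tools named, per the submitters' processing notes, are featureCounts 1.5.0-p3, HISAT and DESeq 1.8.3, with the build GRCm38 and with no role stated for any of them. FPKM times length, with 1 constant per library, gave whole reads within 0.05 reads for 100% of values. A total of 27 symbols stored as dates were restored from gene identifiers.

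Groups follow the titles. The fit was limma 3.58.1 (R 4.3.3, with mean-dependent variance) on log2(FPKM + 0.5) of all 15 libraries without a block, two-sided, adjusted by Benjamini-Hochberg over 13396 genes and called under 0.05. A list's score is its members' mean after centring each gene on 15 libraries. Fold changes on this scale understate the change of low genes. The fit was tested on simulated data. Python 3.11.15, pandas 2.3.3, numpy 2.4.6, scipy 1.17.1, matplotlib 3.10.9 and the R package data.table (1.17.8) were also used.

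Genes were named by a rule: the 12 higher and 12 lower protein-coding genes with the smallest p and a mean of at least 1 FPKM, 18 preset genes, and of each of 27 lists described (of 53) up to 4 members with the smallest p and those whose groups lay apart. Other members and Gm14086 were chosen after their values were seen. The members and lists were chosen with earlier results of these data known. Alternatives were other pseudocounts, filters, scalings, weights, a replicate block, voom, the treatment field and single libraries left out.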

Additional observations from a re-analysis of the deposited data

Results flagged for a closer look

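Single libraries lay far from the other 4 of their group in 16 of 350 checked sets of values (5 libraries of 1 group, gap over range above 0.71, a rule by which chance marks about 1 set in 20). On the encenicline side these were Nr2c1 in encenicline 1 (1.38 FPKM), Fkbp5 in encenicline 1 (14.6 FPKM), Kcna5 in encenicline 1 (24.1 FPKM), Mcm2 in encenicline 2 (0.506 FPKM), Cox7a1 in encenicline 3 (653 FPKM) and Scn4b in encenicline 4 (13.8 FPKM), together with the mean centred log2 values of the antigen presentation list in encenicline 4 (0.0641) and of the inflammasome list in encenicline 2 (-0.175). On the saline side they were Flna in saline 5 (25.5 FPKM), Cd9 in saline 3 (23.4 FPKM), Cd36 in saline 4 (445 FPKM), mt-Co3 in saline 1 (1678 FPKM), mt-Nd4 in saline 3 (9641 FPKM) and Trdn in saline 3 (18.9 FPKM), with the mitochondrially encoded list in saline 5 (-0.512) and the sarcomere list in saline 2 (-0.0948). Fkbp5 and Kcna5 were high and Nr2c1 low in encenicline 1, the library whose treatment field names donepezil. Nr2c1 was higher with donepezil than with encenicline, so its low value in encenicline 1 lay on the side away from donepezil.

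The effects of the drugs differed, by the limma test of encenicline against donepezil, in 7 named genes, with log2 differences of -0.40 for Hsd17b11, 0.73 for Rhbdl3, 0.53 for Ube2ql1, -0.36 for Nr2c1, -2.01 for Pdk4, 0.62 for Cbr2 and 0.71 for Hcn4. The adjusted p of Pdk4 stayed under 0.05 in 23 of 24 alternatives and that of Rhbdl3 in 23 of 24, while that of Cbr2 did so in 8 of 24.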

How the results depend on the processing

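Of the 148 named genes tested, 136 kept the direction of their fold change under all 25 alternatives, and 0 genes were called by limma at an adjusted p under 0.05 in any of them except without donepezil 4 (1 gene). Counts at an unadjusted p under 0.05 moved most with scaling: 70 higher and 1575 lower under TPM, 197 higher and 1165 lower with equal sums leaving out mitochondrially encoded genes, against 653 higher and 582 lower as deposited. They were 968 lower without a filter on low values, 381 lower with a filter at 2 FPKM, and 739 (374 higher, 365 lower) with groups by the treatment field. Leaving out 1 library at a time gave 832 to 1514 genes, with 420 to 820 higher and 412 to 705 lower. Genes whose groups did not overlap numbered 384 under TPM (10 higher, 374 lower), 44 higher and 210 lower without mitochondrially encoded genes in the sum, 52 lower at 2 FPKM and 155 lower without the pair of libraries whose treatment field differs. With 1 library left out, which by construction can only raise them, they numbered 305 to 680, with 171 to 409 higher and 130 to 284 lower.

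List medians moved beyond the spread between libraries in these settings. Under TPM, which moved all genes by about -0.13, they were -0.47 for interferon sensing (-0.48 with voom), -0.11 for cholinergic genes, -0.27 for inflammasome genes, -0.20 for DNA replication, 0.10 for fatty acid oxidation, -0.040 for the citrate cycle, -0.028 for calcium handling, -0.051 for ion channels, -0.11 for the sarcomere and -0.0044 for antioxidant genes. Without mitochondrially encoded genes in the sum they were 0.042 for calcium handling and 0.066 for antioxidant genes. After quantile normalization they were 0 for mitochondrially encoded genes, 0.043 for calcium handling, -0.12 for the sarcomere and 0.057 for antioxidant genes. The cholinergic median was -0.13 at 2 FPKM, 0.06 without the pair of libraries whose treatment field differs and -0.086 to 0.056 with 1 library left out, and the fasting median was 0.039 by the treatment field.

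Of the 148 named genes tested, 7 were called between encenicline and donepezil, and the count was 3 without a filter, 2 under TPM, 12 with library weights, 4 without the pair of libraries whose field differs, 4 without donepezil 4, 0 by the treatment field and 3 to 8 with 1 library left out. The 12 genes that changed sign had log2 fold changes between -0.14 (Egr1) and 0.27 (mt-Nd4) in the fit as reported. Under TPM they were Ccrl2 (-0.092), Il1b (-0.070), Myh6 (-0.10) and Jak2 (-0.082), and without mitochondrially encoded genes in the sum Ccrl2 (-0.026), Il1b (-0.032), Myh6 (-0.032) and Jak2 (-0.016). After quantile normalization they were Ccr2 (0.024), Myh6 (-0.15), Ache (0.033), mt-Nd4 (-0.032) and Tpm1 (-0.060), and with a pseudocount of 1 Il1b (-0.0038). Without the pair of libraries whose field differs they were Nppb (0.027), Ache (0.056) and Egr1 (0.019), and by the treatment field Ccrl2 (-0.035), Nppb (0.024), Ache (0.095), Trim63 (-0.0069) and Egr1 (0.26). With 1 library left out the values ran from -0.038 to 0.14 for Ccrl2, -0.16 to 0.080 for Ccr2, -0.26 to 0.018 for Adgre1, -0.15 to 0.29 for Il1b, -0.40 to 0.21 for Nppb, -0.063 to 0.13 for Myh6, -0.094 to 0.056 for Ache and -0.40 to 0.30 for Egr1. The cause of these moves was not tested.

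Libraries with the same replicate number in encenicline and saline deviated together with correlations across genes of 0.106, 0.091, 0.195, -0.025 and -0.043, so the numbers were not taken to pair them, and 2 of the 5 encenicline libraries correlated best with the saline library of their own number. With the replicate block, 0 genes were called, 1247 had an unadjusted p under 0.05 (668 higher, 579 lower) and 4 named genes were called between encenicline and donepezil. The planned edgeR test was not run, because the deposited unit is FPKM, and voom on recovered reads stands in for it. Genes below about 1 FPKM rest on few reads, and differences in them may not be detectable at this depth.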

Other observations

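Immediate early genes, which switch on within minutes of stimulation or handling, varied widely within both groups. The mean centred log2 value of the list was -0.417, -0.420, 0.210, 0.072 and 0.078 in encenicline 1 to 5, against -0.403, -0.401, 0.582, -0.119 and 0.247 in saline 1 to 5. Replicates 1 and 2 were the lowest of both groups. Egr1, a transcription factor of the list chosen after its values were seen, had 5.26, 4.67, 13.4, 11.05 and 11.6 FPKM in encenicline 1 to 5, against 4.30, 5.78, 33.2, 10.8 and 7.70 FPKM in saline 1 to 5. Fos, a subunit of AP-1 chosen likewise, had 4.57, 2.94, 6.44, 5.01 and 6.42 FPKM in encenicline 1 to 5, against 2.26, 2.52, 8.59, 2.92 and 5.01 FPKM in saline 1 to 5, and Nr4a3, an orphan nuclear receptor, 0.772, 1.17, 1.65, 0.873 and 1.07 FPKM in encenicline 1 to 5, against 3.37, 1.20, 4.39, 0.898 and 1.55 FPKM in saline 1 to 5. In donepezil 1 to 5 the list lay at 0.128, 0.026, 0.152, 0.143 and 0.124, a narrower range.

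The list of the unfolded protein response and chaperones separated 1 library. Its mean centred log2 value was 0.017, -0.007, -0.005, 0.012 and -0.011 in encenicline 1 to 5, against -0.194, -0.084, -0.029, -0.122 and 0.545 in saline 1 to 5. Saline 5 was also among the highest libraries of the interferon effectors, at 0.567. Neutrophil markers lay at -0.862 in saline 5 and at 0.822 and 0.895 in saline 1 and 3, with the encenicline libraries between -0.442 and -0.033.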
